A study of Homo sapiens with 8 samples.

Results

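Small open reading frames (smORFs) that lie in the genes of cytosolic ribosomal proteins were followed by Ribo-Seq in Caco-2 cells. A smORF was included when a gene symbol of its deposited annotation was that of a small-subunit (RPS) or large-subunit (RPL) protein, a stalk protein (RPLP0, RPLP1, RPLP2) or RPSA, and when none of its symbols was a small nucleolar RNA (SNORA or SNORD). This gave 139 smORFs in 52 host genes out of 24199 smORFs, and 19 more smORFs of ribosomal protein genes were left out for a small nucleolar RNA symbol. The hosts were 19 small-subunit genes, 26 large-subunit genes, 3 stalk genes and 4 paralog or like genes (RPS27L, RPL36AL, RPL39L and RPL7L1).

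Caco-2 cells come from a human colon adenocarcinoma and acquire features of absorptive enterocytes when left to differentiate. The 8 libraries fell into 4 groups of 2. Beside undifferentiated cells there were differentiated cells as the control, the same with micelles that held taurocholate and no lipid, and the same with lipid micelles (oleic acid, cholesterol and BSA, a serum albumin). Nothing in the labels says that the 2 libraries of a group came from separate cultures, so p-values measure the spread between these libraries, which may be technical. Library totals ran from 506382 to 884711 smORF counts, and the 139 smORFs held 8955 to 18584 counts of a library.

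The cytosolic ribosome is built from a small subunit that decodes the mRNA and a large subunit that forms peptide bonds. Most mRNAs of its proteins begin with a 5′ terminal oligopyrimidine (TOP) tract, a C followed by a run of C and T at the very start of the transcript. The kinase mTORC1 and the RNA-binding protein LARP1 act through this tract to switch the translation of the whole family on and off with growth. In the intestine, proliferating cells make ribosomes at a high rate, and cells that leave the cycle to become enterocytes make fewer.

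The transcript starts of the hosts carried the tract that defines the family. RefSeq promoter windows (GRCh38.p14) were matched by symbol for 43 of the 52 hosts, and 29 of these 43 (67.4%) had a C at an annotated start followed by at least 4 C or T, against 5.14% of all 27305 genes in the table and 8.11% of 74 mitochondrial ribosomal protein genes. The search was made on the transcribed strand at the start itself, letter by letter, and any start of a gene counted. Windows of 30 bases around the start (10 before it, 20 from it) are shown for hosts whose smORFs are described below, with the run of C and T that opens the transcript in capitals. They lie at chr5:150449720-150449749 on the minus strand for RPS14, chr3:197950180-197950209 on the plus strand for RPL35A, chr16:89560672-89560701 on the plus strand for RPL13, chr2:101002279-101002308 on the plus strand for RPL31 and chr11:809957-809986 on the plus strand for RPLP2. The paralogs RPS27L (chr15:63157458-63157487, minus strand) and RPL7L1 (chr6:42879606-42879635, plus strand) are shown for contrast, with their first base in capitals because it is not a C.
RPS14: ccctcccactCTCTCTTTCCggtgtggagt
RPL35A: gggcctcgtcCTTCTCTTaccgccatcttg
RPL13: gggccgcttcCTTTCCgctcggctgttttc
RPL31: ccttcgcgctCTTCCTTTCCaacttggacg
RPLP2: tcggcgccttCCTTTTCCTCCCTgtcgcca
RPS27L: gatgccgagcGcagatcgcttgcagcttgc
RPL7L1: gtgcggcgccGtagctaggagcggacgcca

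The run was 10 bases long in RPS14 and RPL31, 8 in RPL35A, 6 in RPL13 and 13 in RPLP2. At the first base of the transcript, 70.4% of the 54 host windows held a pyrimidine against 21.9% of all 35116 windows, and 5 bases further in the shares were 79.6% and 55.0%.

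**Figure D1:**
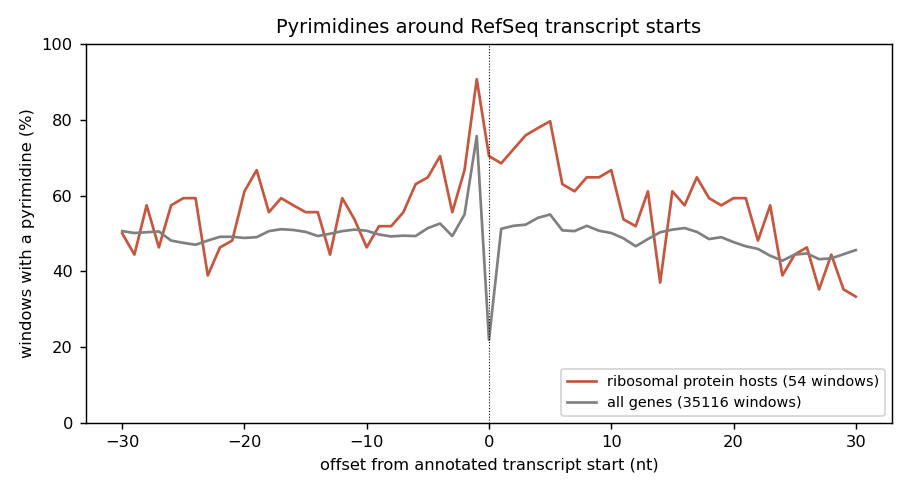
Share of RefSeq promoter windows with a pyrimidine (C or T, y axis, in percent) at each offset from the annotated transcript start (x axis, in nt), for windows of the ribosomal protein hosts (54 windows, red) and of all genes (35116 windows, grey). Over the start and the next 5 bases the host line runs from 68.5% to 79.6%, while the line of all genes drops to 21.9% at the start and lies at 51.2% to 55.0% over the next 5.

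Some of the smORFs began at or near the transcript start. Of the 139, 25 smORFs in 16 hosts started within 5 nt of the start of the MANE Select transcript, the reference transcript chosen for each gene. By the part of that transcript that held most of their bases, 45 lay in the 5′ UTR, 69 in an intron, 13 in the 3′ UTR and 12 upstream of the transcript start. None overlapped an annotated coding exon or an annotated small RNA exon, and 8 smORFs, all of RPL17, had a small RNA gene within 100 nt. The authors' location classes were uORF (5′ UTR of an annotated gene) for 119 smORFs, dORF (3′ UTR) for 14 and non-coding for 6. A smORF in an intron of the reference transcript can belong to another transcript of the gene that keeps those bases as exon. All bases of 107 of the 139 lay in the 5′ UTR of some annotated transcript on the same strand. Many smORFs placed in an intron here are thus 5′ UTR in another annotated transcript.

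The smORFs were short and were found at high levels. Their median length was 18 amino acids (range 6 to 137) against 31 for all smORFs, and 85.6% were uORFs against 69.9% of all. ATG was the first codon of 36 (25.9%) against 43.4% of all smORFs. The median of the mean CPM (reads of a smORF relative to its library's TMM-scaled total) was 39.3 against 15.0 for all smORFs. Their median RibORF score, a measure of coverage and codon periodicity, was 0.868 against 0.876, and 1 of the 139 had a mean PhyloCSF score, a measure of coding conservation, above 0 (0.719% against 1.75%). Only 4 touched a RepeatMasker repeat (2.88% against 39.7%). Ribosomal protein genes have many processed pseudogenes, yet the share of 28 nt stretches with an exact second copy in hg38 was above 0 in 23 of the 139 (16.5% against 11.1%) and reached at most 44.4%, in RPL10A. The smORFs also overlapped each other, with 95 sharing bases with another smORF on the same strand. They formed 71 overlap clusters, so many values below are repeated measurements of the same reads.

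Reading frames that carry the results are shown from their first base, up to 30 bases, with the first codon in capitals. They are the pair of frames upstream of the RPL10 transcript (IEC_07368 at chrX:154398270-154398350 and IEC_12669 at chrX:154398318-154398350, plus strand), the RPL10 frame that spans the transcript start (IEC_02912, chrX:154398372-154398395, plus strand), the RPL13 and RPS14 frames that start at or next to the transcript start (IEC_01987, chr16:89560682-89560950, plus strand, spliced, and IEC_20800, chr5:150449496-150449738, minus strand), RPS26 IEC_03159 (chr12:56041950-56041970, plus strand) and RPS27L IEC_15426 (chr15:63157458-63157499, minus strand), all on hg38.
RPL10 IEC_07368: ATGgtcatgacgtctgacagagcgtccacc
RPL10 IEC_12669: ATGgttcttacgcgcgcagacagaccgcct
RPL10 IEC_02912: AGCgcctctttcccttcggtgtgg
RPL13 IEC_01987: CTTtccgctcggctgttttcctgcgcagga
RPS14 IEC_20800: TCTctttccggtgtggagtctggagacgac
RPS26 IEC_03159: ATGtgcactttgttccatgga
RPS27L IEC_15426: ATCccggaagttgatgccgagcgcagatcg

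IEC_01987 began at the first base of the RPL13 transcript, and IEC_20800 began 1 base inside that of RPS14, just past the C that opens its tract. The RPL10 frame IEC_02912 began 5 bases before the annotated start. IEC_07368 and IEC_12669 began 107 and 59 bases before that start with ATG.

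The most abundant smORF of each host, taken as its representative, differed widely in level. RPS14 IEC_20800 had the highest mean over the 8 libraries at 2038 CPM, followed by RPL31 IEC_05194 (1495), RPL17 IEC_22212 (1414), RPL13 IEC_07497 (1236), RPL35A IEC_07517 (1044), RPL38 IEC_10403 (675), RPS19 IEC_10783 (501) and RPS20 IEC_12926 (438). This order is over all groups and differed within them, since RPL13 had a higher mean than RPL31 in undifferentiated cells (1673 against 1588 CPM) and with lipid micelles (1552 against 1467) and a lower one in control cells (949 against 1515). Per 100 nt of smORF the order changed, with RPL31 at 6228 CPM, RPL17 at 3142, RPL13 at 2747, RPS20 at 2086, RPL35A at 2047, RPL38 at 1499.5, RPS19 at 1392 and RPS14 at 838. RPL17 and RPL31 sit at the exit of the peptide tunnel of the large subunit, and RPS14 and RPS19 are small-subunit proteins whose haploinsufficiency is known from blood disorders. Of the 52 hosts, 41 had a smORF that passed the filter on low counts, and 110 of the 139 smORFs were tested among 15182 in all. The other 29 held 5 to 61 counts over the 8 libraries together, and at most 16 in any library.

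The first comparison asked how the smORFs differed between differentiated control cells and undifferentiated cells. In the study's mass spectrometry, differentiated Caco-2 plates were cultured longer than undifferentiated ones and then kept overnight without serum. If the cells of these libraries were kept likewise, culture time and serum cannot be told apart from differentiation. In each library the 139 smORFs held 2.70% and 2.49% of the smORF counts in undifferentiated cells, 1.77% and 2.0% in differentiated control cells, 1.74% and 1.78% with micelles without lipid, and 2.02% and 2.10% with lipid micelles. Both undifferentiated libraries lay above all 6 differentiated ones. The share was 2.60% ± 0.153 (SD, n = 2) before and 1.88% ± 0.160 (SD, n = 2) after differentiation, a difference of -0.714 percentage points (two-sided exact permutation test, p = 0.333, the smallest that 2 against 2 libraries allow). With 1 smORF per overlap cluster the shares were 3.20% and 2.46%. Counts of Ribo-Seq reads alone do not say whether the host mRNA or the ribosomes per mRNA differed, and fewer cells of a type and less RNA per cell cannot be told apart.

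Among single smORFs, 28 of the 110 tested were lower and 5 higher in differentiated control cells, called at an adjusted p under 0.05 and a change of at least 2-fold (edgeR quasi-likelihood test, adjusted over all smORFs tested). These are 25.5% and 4.55% of the members tested, where 15.6% of all smORFs tested were called lower and 17.7% higher. In either direction the share was 30% against 33.3%. At an unadjusted p under 0.05 it was 50.9% against 46.6%. The median log2 fold change was -0.52 against 0.01 for all smORFs, and 77 of the 110 lay below 0 (70%, against 49.6%). Both control libraries lay below both undifferentiated ones for 48.2% of the members tested and 33.9% of all smORFs tested. They lay above them for 14.5% and 35.4%. The 28 fell into 16 overlap clusters in 13 hosts, and the 5 that rose into 4 clusters in 4 hosts. DESeq2 called 16 lower and 2 higher. With 1 smORF per overlap cluster, 13 were lower and 1 higher of 50 tested. The share of all smORFs called in these 2 fits is not given here, so these counts cannot be set against it.

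**Figure D2:**
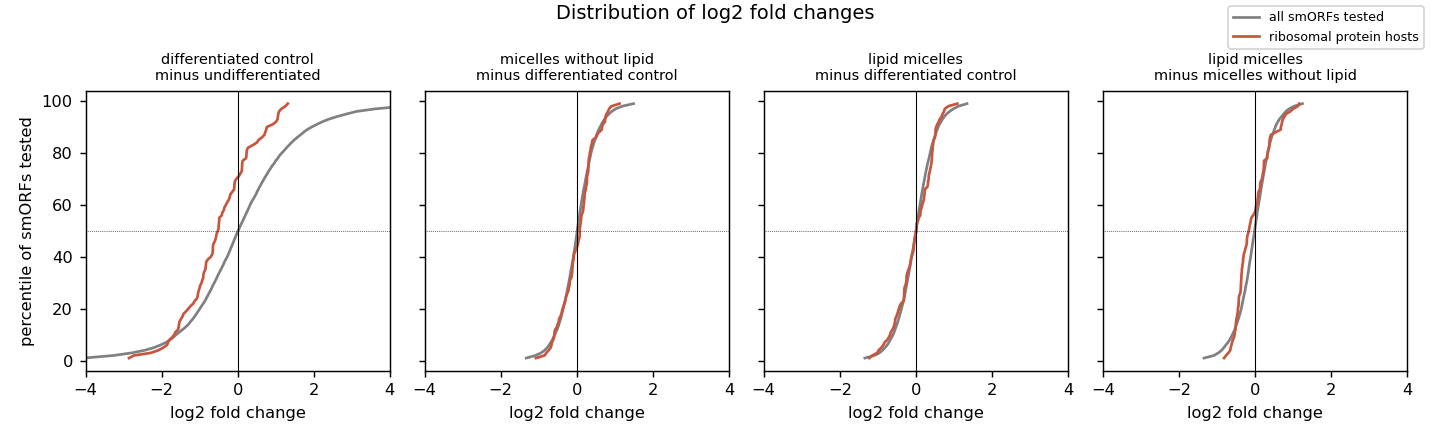
Percentile (y axis) of the log2 fold change (x axis) over the 110 smORFs of ribosomal protein hosts (red) and over all 15182 smORFs tested (grey), with a panel per comparison. In the first panel the red line crosses the median at -0.52 and the grey line at 0.01, and in the 3 micelle panels the red medians are 0.08, 0.01 and -0.17.

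Small-subunit hosts had 29 smORFs tested, of which 10 fell, 1 rose and 18 did not pass, with a median log2 fold change of -0.85. For all smORFs tested the shares called were 15.6% lower and 17.7% higher. RPS26, RPS7 and RPS19 are genes mutated in Diamond-Blackfan anaemia, and RPS2 lines the channel through which mRNA enters the small subunit. RPS26 IEC_03159, a 7-codon ATG frame in the 5′ UTR, stood at 299 and 139.6 CPM in the undifferentiated libraries, 39.6 and 81.6 in the control libraries, 47.3 and 93.5 with micelles without lipid and 57.5 and 79.9 with lipid micelles. Both undifferentiated libraries were above all the others, and the fall was -1.83 ± 0.40 on the log2 scale (SE, edgeR adjusted p = 0.00197). Without the first undifferentiated library it was not called (-1.17, adjusted p = 0.0678).

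RPS2 IEC_21184, which runs from 13 bases before the transcript start into the first intron, stood at 181 and 157 CPM in undifferentiated cells, 41.5 and 71.6 in control cells, 68.3 and 57.4 with micelles without lipid and 47.4 and 49.5 with lipid micelles. Its groups did not overlap either, and it fell by 1.55 ± 0.30 on the log2 scale (SE, edgeR adjusted p = 0.000705). RPS7 IEC_11478, which starts at the first base of its transcript, had few counts (29 and 17 in undifferentiated, 4 and 11 in control libraries) and fell by 1.71 ± 0.49 (SE, edgeR adjusted p = 0.0113). This call was lost without the first undifferentiated library (adjusted p = 0.13), without the first control library (0.0888) and with DESeq2 (0.0707).

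RPS14 IEC_20800, the most abundant of all, stood at 2428 and 3002 CPM in undifferentiated cells and at 1219 and 1843 in control cells. With micelles without lipid it stood at 1516 and 1934, and with lipid micelles at 2262 and 2097. The undifferentiated libraries were the highest and no differentiated library reached them, but the difference of -0.83 ± 0.26 (SE, edgeR adjusted p = 0.0178) was under 2-fold and was not called. Over 15 alternatives the value of IEC_20800 ran from -1.13, without the second control library, to -0.522. The shorter frames inside it, IEC_14916 (-1.13) and IEC_14917 (-1.33), which lie within the first intron, were called lower.

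RPS19 IEC_10783 (582 and 613 CPM in undifferentiated, 432 and 423 in control libraries) and RPS20 IEC_12926 (525 and 783, 269.8 and 455) were lower in both control libraries without passing the test, at -0.49 ± 0.23 and -0.85 ± 0.34 (SE, edgeR adjusted p = 0.106 and 0.0581). RPS20 IEC_12926 ran from -1.25, without the second control library, to -0.487 over 15 alternatives. The 1 small-subunit smORF called higher lay in RPS29, whose product carries a zinc finger, and 6 of the 29 lay above 0. Its dORF IEC_13373 stood at 24.1 and 23.8 CPM in undifferentiated cells, 64.2 and 57.8 in control cells, 63.1 and 68.1 with micelles without lipid and 35.9 and 38.2 with lipid micelles. It was higher in every differentiated library and rose by 1.32 ± 0.34 (SE, edgeR adjusted p = 0.00584).

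Large-subunit hosts had 73 smORFs tested, of which 17 fell, 3 rose and 53 did not pass, with a median of -0.41. For all smORFs tested the shares called were 15.6% lower and 17.7% higher. RPL27 IEC_10580, in the first intron, stood at 72.4 and 81.7 CPM in undifferentiated cells, 22.6 and 16.3 in control cells, 19.3 and 16 with micelles without lipid and 20.1 and 7.87 with lipid micelles. No differentiated library came near the undifferentiated ones, and the fall was -2.01 ± 0.41 (SE, edgeR adjusted p = 0.00103). All 3 RPL27 frames tested, which form 1 overlap cluster, were called lower, from -2.34 to -2.01.

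RPL6 IEC_18702, also intronic, stood at 151 and 106 CPM in undifferentiated and 41.5 and 54.0 in control libraries and fell by 1.42 ± 0.32 (SE, edgeR adjusted p = 0.00221). RPL34 IEC_04678 went from 54.3 and 83.4 to 26.4 and 31.4 CPM, a fall of 1.24 ± 0.35 (SE, edgeR adjusted p = 0.0112). For both of these smORFs the undifferentiated and control libraries did not overlap, which does not hold for every smORF of the 2 hosts. The RPL34 call was lost with DESeq2 (adjusted p = 0.0529) and without the second undifferentiated (0.132), the first control (0.0755) or the second control library (0.0539).

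RPL7 IEC_17813, an ATG frame upstream of the transcript, held 13 and 29 counts in undifferentiated and 6 and 6 in control libraries and fell by 1.89 ± 0.57 (SE, edgeR adjusted p = 0.0158). Its call was lost without the second undifferentiated (adjusted p = 0.296) or second control library (0.133) and with DESeq2 (0.0652). RPL9 IEC_19406, chosen after its values were seen, had 16 and 20 counts before and 4 and 1 after differentiation, with a fall of 2.86 ± 0.77 (SE, edgeR adjusted p = 0.00792) that did not pass without the second undifferentiated (0.0674) or second control library (0.114). RPL27 IEC_10578, chosen likewise, went from 22 and 21 counts to 2 and 7 (-2.34 ± 0.67 SE, edgeR adjusted p = 0.0119). This call was lost without the first undifferentiated (adjusted p = 0.0525), the second undifferentiated (0.0615) or the first control library (0.0694).

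**Figure D3:**
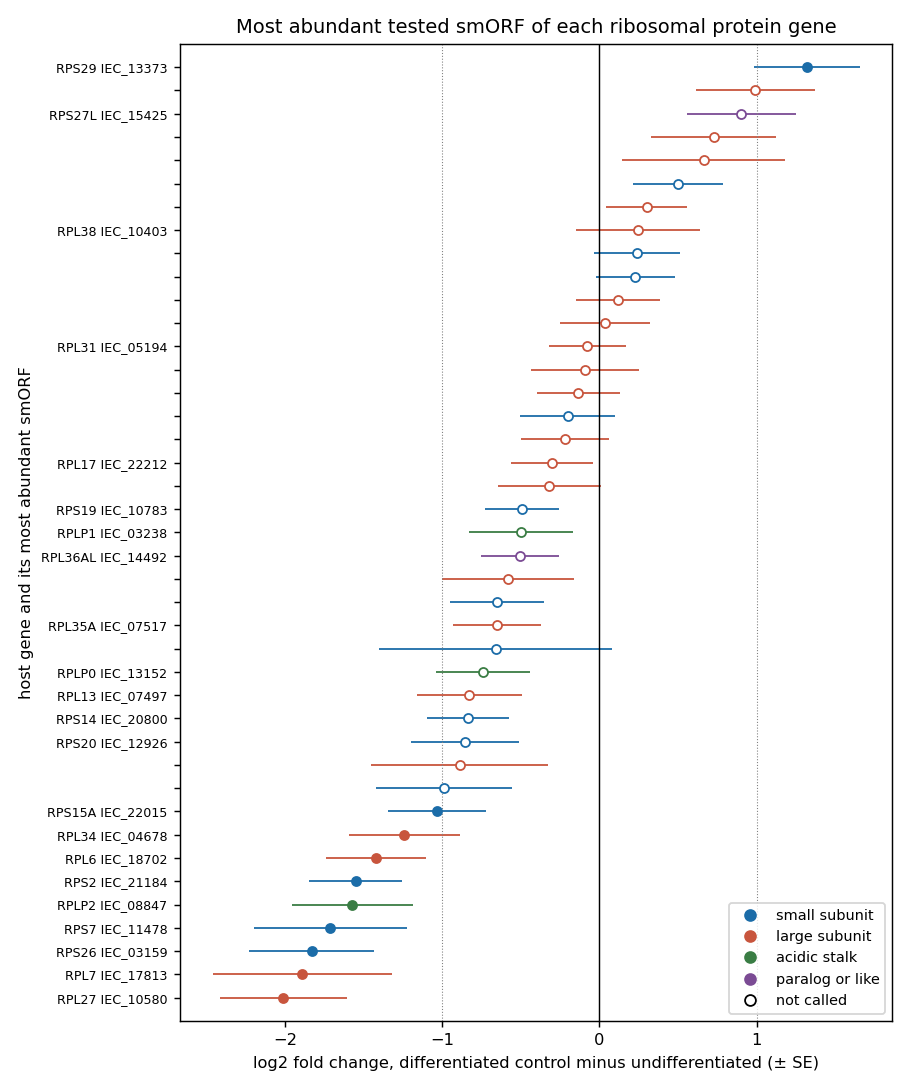
Log2 fold change with its standard error (x axis, differentiated control minus undifferentiated) of the most abundant smORF tested in each of 41 ribosomal protein host genes (y axis, with names for called smORFs, the 8 of highest mean CPM, stalk genes and paralogs), coloured by role, with filled points called at an adjusted p under 0.05 and at least 2-fold. Points run from -2.01 for RPL27 to 1.32 for RPS29, and 29 of the 41 lie below 0.

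Of the most abundant large-subunit smORFs, the representatives of RPL31 and RPL17 lay above the large-subunit median of -0.41. RPL31 IEC_05194 stood at 1793 and 1383 CPM in undifferentiated and 1332 and 1698 in control libraries, at -0.08 ± 0.25 (SE, edgeR adjusted p = 0.831). RPL17 IEC_22212 stood at 1321 and 1698 against 1139.7 and 1329.7 CPM, at -0.30 ± 0.26 (SE, edgeR adjusted p = 0.389). In both genes the groups overlapped, and these data do not show a difference.

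RPL13 IEC_07497 stood at 2218 and 1127 against 764 and 1134 CPM, and RPL35A IEC_07517 at 1645 and 1516 against 849 and 1175. RPL13 IEC_07497 was at -0.83 ± 0.34 and RPL35A at -0.65 ± 0.28 (SE, edgeR adjusted p = 0.0626 and 0.0733). The RPL13 groups overlapped and those of RPL35A did not. Over 15 alternatives RPL13 IEC_07497 ran from -1.21, without the second undifferentiated library, to -0.25. The shorter RPL13 frames IEC_01987 and IEC_06558 were called lower, both at -1.05 (edgeR adjusted p = 0.0399 and 0.0442). RPL38 IEC_10403, in a gene known for its part in the translation of Hox mRNAs in the mouse embryo, differed widely between libraries of a group (559.5 and 739 against 1093 and 465 CPM). Its value was 0.25 ± 0.39 (SE, edgeR adjusted p = 0.656) and changed sign, to -0.45, without the first control library.

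RPL10, which joins the large subunit late in its maturation, held smORFs that moved in opposite directions, and its members were chosen for description after their values were seen. The upstream ATG frame IEC_07368 stood at 311 and 206 CPM in undifferentiated cells, 26.4 and 26.4 in control cells, 17.5 and 33.4 with micelles without lipid and 27.3 and 25.9 with lipid micelles. Every differentiated library was far below both undifferentiated ones. It fell by 3.29 ± 0.34 on the log2 scale, or 9.81-fold (SE, edgeR adjusted p = 1.61e-06), and IEC_12669, which lies inside it, fell by 2.81 ± 0.37 (adjusted p = 1.91e-05).

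The frame at the transcript start, IEC_02912, stood at 101 and 47.7 CPM in undifferentiated cells, 106 and 213 in control cells, 340.0 and 206 with micelles without lipid and 263 and 143 with lipid micelles. Its control libraries lay above both undifferentiated ones, the first of them by little. It rose by 1.10 ± 0.41 (SE, edgeR adjusted p = 0.0429), and IEC_06116, which holds all its bases, by 1.07 ± 0.41 (adjusted p = 0.0495). These calls were lost without the second undifferentiated library (adjusted p = 0.299 and 0.331), without the second control library (0.433 and 0.465) and with DESeq2 (0.0774 and 0.0883), and that of IEC_06116 also with RLE scaling (0.0515) and with at least 10 counts in every library (0.0546). The fall of IEC_07368 passed in all 15 alternatives.

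Within each library the counts of IEC_07368 against those of IEC_02912 gave a ratio free of library scaling. It was 3.07 and 4.32 in undifferentiated cells, 0.25 and 0.124 in control cells, 0.0515 and 0.162 with micelles without lipid and 0.104 and 0.181 with lipid micelles. The upstream frame thus held more counts than the frame at the start in both undifferentiated libraries and fewer in all 6 differentiated ones.

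RPL21 had 7 smORFs tested, of which 1 was called higher and none lower. IEC_02186, in the first intron and likewise chosen after its values were seen, had 6 and 5 counts in undifferentiated libraries and 23, 34, 26, 26, 19 and 37 in the differentiated ones, control libraries first. It rose by 2.26 ± 0.46 (SE, edgeR adjusted p = 0.00104), the highest value among the 110 members tested, and passed in all 13 alternatives that gave a value. The other 6 RPL21 smORFs did not pass and ran from -0.65 to 0.30.

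**Figure D4:**
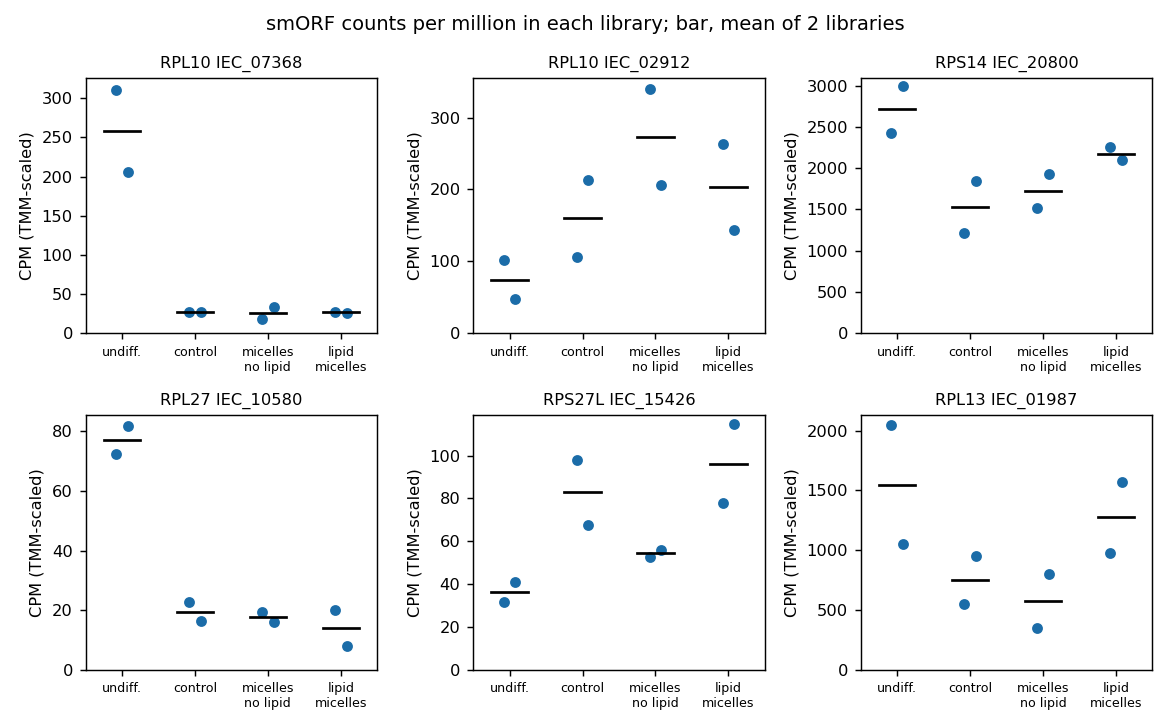
CPM scaled by TMM (y axis, from 0) in each library (points) of the 4 groups (x axis) for 6 smORFs, with the mean of the 2 libraries as a bar. RPL10 IEC_07368 and RPL27 IEC_10580 are high in the undifferentiated libraries alone (206 to 311 and 72.4 to 81.7 CPM), whereas RPL10 IEC_02912 and RPS27L IEC_15426 are lowest there.

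The stalk proteins RPLP0, RPLP1 and RPLP2 form the flexible arm of the large subunit that recruits elongation factors. All 5 of their smORFs tested lay below 0, with a median of -0.53, and 1 was called. Of these, 3 are overlapping RPLP1 frames that share most of their reads, so the 5 are not separate measurements. RPLP2 IEC_08847, a 6-codon frame 17 bases into the transcript, just after its tract, stood at 82.9 and 57.9 CPM in undifferentiated cells, 20.8 and 26.4 in control cells, 15.8 and 33.4 with micelles without lipid and 38.8 and 48.4 with lipid micelles. It fell by 1.57 ± 0.39 (SE, edgeR adjusted p = 0.00465), a call lost without the first undifferentiated library (0.0644).

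RPLP0 IEC_13152 (89.0 and 80.0 against 47.2 and 54.0 CPM) was at -0.74 ± 0.30 and RPLP1 IEC_03238 (48.3 and 76.6 against 49.1 and 40.2 CPM) at -0.50 ± 0.33 (SE, edgeR adjusted p = 0.0599 and 0.25). The RPLP0 groups did not overlap, and those of RPLP1 did.

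The paralogs gave few values. RPS27L, a p53 target related to RPS27, held 2 overlapping frames across its transcript start. IEC_15426, chosen after its values were seen, stood at 31.7 and 40.9 CPM in undifferentiated cells, 98.1 and 67.8 in control cells, 52.6 and 56.1 with micelles without lipid and 77.6 and 115 with lipid micelles. All differentiated libraries were above both undifferentiated ones, and it rose by 1.17 ± 0.34 (SE, edgeR adjusted p = 0.0128). That call was lost without the first undifferentiated (0.105) or first control library (0.093) and with DESeq2 (0.0521).

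Its longer neighbour IEC_15425 was at 0.90 ± 0.35 (SE, edgeR adjusted p = 0.050) and was not called. It was at 1.27 without the second undifferentiated library and at 1.33 without the second control library. Over 15 alternatives it ran from 0.474 to 1.33. RPL36AL IEC_14492 stood at 344 and 245 against 192 and 225 CPM, at -0.51 ± 0.25 (SE, edgeR adjusted p = 0.122). The smORFs of RPL39L and RPL7L1 had too few counts to be tested, and no smORF of RPL5, RPL11, RPSA, RPS6, RPS27A or RPS4X was among the members.

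By position in the reference transcript of the host, intronic smORFs held most of the lower calls. Bases counted as intron there can be 5′ UTR of another annotated transcript, as given above. Among all 15182 smORFs tested, 15.6% were called lower and 17.7% higher. Of the 50 intronic smORFs tested, 17 fell and 1 rose, with a median of -0.79. Of the 42 in the 5′ UTR, 7 fell and 2 rose, with a median of -0.37, and the 24 that start within 5 nt of the transcript start had a median of -0.50 with 4 lower and 1 higher. Of the 11 upstream of the transcript, 4 fell and 1 rose (median -0.98). All 7 in the 3′ UTR lay above 0 (median 0.57), and 1 of them was called. They include RPL30 IEC_14243 and IEC_20875, which overlap and have the same counts in every library. The same holds for RPL34 IEC_04680 and IEC_07964, so the 7 are not separate measurements. The difference between these positions was not tested, since members of a host share reads. Representatives of hosts with a TOP tract (23, median -0.49) and without it (11, median -0.51) had like medians, and the 7 in hosts with no matched window had a median of -0.85.

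**Figure D5:**
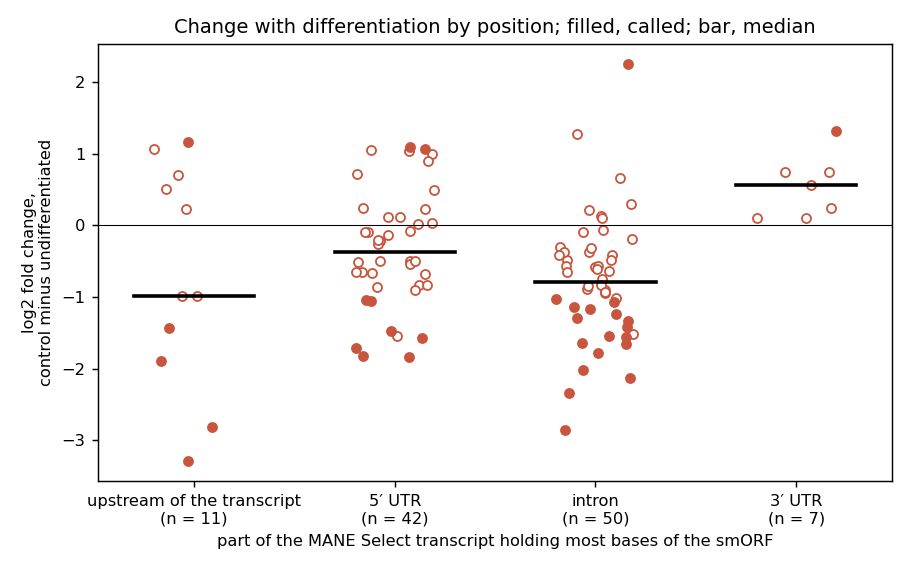
Log2 fold change (y axis, differentiated control minus undifferentiated) of the 110 smORFs tested, by the part of the reference transcript that holds most of their bases (x axis), with called smORFs filled and the median as a bar. The medians are -0.98 upstream of the transcript, -0.37 in the 5′ UTR, -0.79 in the intron and 0.57 in the 3′ UTR.

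Other genes of the same pathway were read from fixed lists of hosts. For comparison, 15.6% of all smORFs tested were called lower and 17.7% higher. Of the ribosomal proteins outside the symbol rule, FAU, a fusion that yields a small-subunit protein, was at -0.66 ± 0.49 (SE, edgeR adjusted p = 0.307) and was not called, and RACK1 held no smORF. Of 60 smORFs in 10 other TOP genes, 5 rose and 3 fell, with a median of 0.25, and 30 of the 60 lay in GAS5, a host of small nucleolar RNAs. Of 29 smORFs in 12 ribosome assembly genes, 12 fell and 3 rose, with a median of -0.81, among them UBTF (-2.25 ± 0.45 SE), a factor of rRNA transcription, and NOP58 (-1.49 ± 0.35 SE), a small nucleolar RNP protein, against NCL (1.26 ± 0.30 SE), the nucleolar protein nucleolin. None of 17 smORFs in 5 genes of mTORC1 and TOP control was called by edgeR, and none of the 17 had an unadjusted p under 0.05 (median 0.36).

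Hosts of like function had medians of the same sign. Of 83 smORFs tested in mitochondrial ribosomal protein genes, 17 fell and 11 rose (median -0.24), and of 82 in translation factor genes 25 fell and 8 rose (median -0.76). In the ribosomal protein hosts 28 of 110 fell and 5 rose (median -0.52), and of all smORFs tested 15.6% fell and 17.7% rose. Lower calls were thus not particular to the ribosomal protein hosts.

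Markers of the cells moved with this comparison. Of 18 smORFs tested in genes of proliferating cells, 17 fell and none rose, with a median of -3.66. The summed counts of that list were 4653 and 4299 in undifferentiated against 300 to 504 in differentiated libraries. Of 6 enterocyte smORFs tested, 5 rose and 1 fell (median 2.78), and of 13 in colon epithelium genes 8 rose (median 2.71). Fibroblast and immune markers had summed counts of 0 to 21 and 0 to 9 in a library, and none of their smORFs was tested. The part of proliferation in the changes of the ribosomal protein hosts was not tested.

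The pattern of RPS14 IEC_20800 over the 8 libraries was most like those of RPL34 IEC_04678 (Pearson's r of log2 CPM = 0.939), RPLP2 IEC_08847 (0.844) and RPS20 IEC_12926 (0.815). These values describe libraries that share depth and group, over 8 points.

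The second question was whether micelles changed these smORFs in differentiated cells. In the edgeR test none of the 110 was called in any of the 3 micelle comparisons, where 0% of all 15182 smORFs were called, and DESeq2 called none either. At an unadjusted p under 0.05 there were 7 with micelles without lipid against control (4.08% of all smORFs, 6.36% of the members), 8 with lipid micelles against control (4.66% and 7.27%) and 11 with lipid micelles against micelles without lipid (4.11% and 10%). The medians of the members were 0.08, 0.01 and -0.17, where those of all smORFs were 0.01, 0.00 and -0.01. The first pair of comparisons share the control libraries, and the third shares libraries with each of them. Without the low-count filter edgeR called 1, 0 and 2 members (0.158%, 0.0176% and 0.101% of all 22770 smORFs).

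With micelles without lipid, the representatives with the smallest p were RPS24, RPL35A and RPLP1. RPS24 IEC_06069 stood at 211 and 247 CPM in control cells and 338 and 394 with micelles without lipid (0.67 ± 0.25 SE), against 295 and 287 with lipid micelles. RPL35A IEC_07517 was at -0.57 ± 0.28 and RPLP1 IEC_03238 at 0.66 ± 0.33, and the edgeR adjusted p was 1.00 for each of these representatives. RPS15A IEC_15262, chosen after its values were seen, stood at 18.9 and 17.6 CPM in control cells and at 43.8 and 84.1 with micelles without lipid (1.83 ± 0.43 SE, edgeR adjusted p = 0.523). It was called without the low-count filter (adjusted p = 0.0115) and without the first of those micelle libraries (0.0282), and 30.7% of its 28 nt stretches have a second copy in the genome.

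With lipid micelles against control cells, RPS29 IEC_13373 (-0.71 ± 0.31 SE) and RPLP2 IEC_08847 (0.87 ± 0.40 SE) were among the representatives with the smallest p, each with an edgeR adjusted p of 0.957. The RPS29 dORF was lower in both lipid libraries (35.9 and 38.2 CPM) than in the control libraries (64.2 and 57.8), and RPLP2 was higher in both.

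The members called under a replicate block were the 5′ frames of RPL13, a large-subunit protein whose mutation causes a skeletal dysplasia. IEC_01987 stood at 349 and 801 CPM with micelles without lipid and at 981 and 1574 with lipid micelles, against 553 and 952 in control cells and 2045 and 1051 in undifferentiated cells. Both lipid libraries were above both libraries without lipid, and the control libraries lay below both lipid libraries and overlapped those without lipid. The difference was 1.15 ± 0.38 (SE, edgeR adjusted p = 0.999). With the replicate number as a block among the 6 differentiated libraries it was 1.22 ± 0.20 (SE, adjusted p = 0.0252), and IEC_06558 (1.25 ± 0.20, adjusted p = 0.0251) and IEC_07497 (1.04 ± 0.18, adjusted p = 0.047) were also called, where 0.0975% of 14360 smORFs were called. In the same fit no member was called with micelles without lipid or with lipid micelles against control (0.104% and 0.00696% of all). The 3 frames overlap and share most of their reads (321, 199 and 184 counts in the first library with micelles without lipid, for IEC_07497, IEC_01987 and IEC_06558), so they are not separate measurements.

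These RPL13 frames end 10 nt before the annotated start codon of the gene. Together with frames of RPL35A, RPL10A and RPL30, 9 smORFs of the 5′ UTR in 4 hosts ended within 15 nt of it. All 9 lay above 0 with lipid micelles against micelles without lipid (range 0.24 to 1.17, median 0.67), where 7390 of all 15182 smORFs did. An unadjusted p under 0.05 was reached by 5 of them and by 4.11% of all smORFs. Against control cells, 8 of the 9 lay below 0 with micelles without lipid (median -0.39) and 6 of the 9 above 0 with lipid micelles (median 0.46). Frames placed mostly in an intron were not in this group, among them RPL17 IEC_22212 and IEC_22213. These frames ended 6 and 13 nt before the annotated start codon of RPL17. Their mean CPM was 1450 and 20.5 with lipid micelles, against 1462 and 33.1 with micelles without lipid. A ribosome on the annotated start codon also covers bases upstream of it, so its reads and those of the last codons of such smORFs cannot be told apart here. This group was formed after the values were seen, and 3 of its 9 members are the RPL13 frames. Another 3 are overlapping RPL35A frames, and 2 are overlapping RPL10A frames with the same counts in every library. The 9 are therefore not separate measurements.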

How the data were processed

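Per the labels and the study's methods, the authors prepared Ribo-Seq libraries from Caco-2 cells treated with cycloheximide and digested with RNase I, aligned reads to hg38 with STAR, scored frames of assembled transcripts with RibORF, kept smORFs of up to 150 amino acids, and deposited raw counts per smORF made with HOMER for 8 libraries. The submitters' processing notes name STAR 2.7.11a. The strand and multi-mapping options of the counting are not given in the sources used here, so overlapping smORFs and repeated stretches are uncertain. The RibORF and PhyloCSF scores are the deposited values.

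Members and gene lists were chosen with earlier results of these data known. Counts were fitted with edgeR 4.0.16 in R 4.3.3 (filterByExpr, TMM, 1 term per group, all 8 libraries, quasi-likelihood test), with Benjamini-Hochberg adjustment over 15182 smORFs. Calls needed an adjusted p below 0.05 together with a change of 1 or more on the log2 scale, up or down. CPM are relative to the TMM-scaled total of smORF counts, in which overlapping smORFs count a read more than once, and 0 counts allow up to 3.37 to 5.66 CPM (3 counts, counting error only). Errors are SDs or SEs, the latter from the F statistic. In data simulated for differentiated control against undifferentiated cells, 65 of 93 smORFs changed 4-fold, 11 of 93 changed 2-fold and 1 of 13885 unchanged were called.

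A host's representative was its tested smORF with the highest mean CPM. Named were the representatives called with the 8 largest changes each way, the 8 of highest mean CPM, fixed paralog and special-role genes and, for micelles, members called in either fit or the 3 representatives with the smallest p, with others said to be chosen after their values were seen. For likeness, the 3 representatives with the highest Pearson's r to the most abundant one were taken. Positions came from GENCODE 44 (MANE Select) on hg38. Alternatives were RLE or total-count scaling, no filter, at least 10 counts in every library, DESeq2 1.42.0, a replicate block, 1 smORF per cluster and leaving out each library. Over all smORFs tested, equally numbered libraries deviated together weakly in the 3 pairs of differentiated groups (r = 0.198, 0.119 and 0.109). With undifferentiated cells r was -0.0653 to 0.0208. Over the members r was 0.198, 0.0968 and 0.455 in those 3 pairs and -0.445 to 0.146 with undifferentiated cells. The block was used as a pairing for the micelle comparisons on the values over all smORFs, which do not show that libraries were paired. Library 1 was also the shallower in each differentiated group. Results for a few genes named by these rules are not reported here.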

Additional observations from a re-analysis of the deposited data

How the results depend on the processing

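For differentiated control against undifferentiated cells, 33 members were called, and this number was 13 (4 higher, 9 lower) with at least 10 counts in every library, 18 with DESeq2, 14 with 1 smORF per overlap cluster and 23 to 39 when a library was left out. The median of -0.52 became -0.371 with at least 10 counts in every library and -0.523 to -0.297 when a library was left out, with the value nearest 0 without the second undifferentiated library. In the replicate block fit 37 members were called (7 higher, 30 lower) with a median of -0.52, where 33.8% of all 15182 smORFs tested were called. Replicate numbers were not read as a pairing for these libraries. For the other alternatives of this comparison the share of all smORFs called is not given here, so their counts cannot be set against it. For micelles without lipid against control, 1 member was called without the low-count filter and 0 to 1 when a library was left out, and the median of 0.08 became -0.0404 with 1 smORF per cluster and 0.00202 to 0.0737 with a library left out. For lipid micelles against control no setting gave a call, and the median of 0.01 was -0.0322 with total-count scaling, 0.0754 with at least 10 counts in every library, 0.116 with 1 representative per host and -0.0738 to 0.0902 with a library left out. For lipid micelles against micelles without lipid, 2 members were called without the filter and 3 in the replicate block fit, none when a library was left out, and the median of -0.17 became -0.137 with total-count scaling, -0.133 without the filter, -0.0926 with at least 10 counts in every library, -0.031 with 1 smORF per cluster, -0.0112 with 1 representative per host and -0.164 to -0.0561 with a library left out. The replicate block changed no other call of a named smORF. The 6 differentiated libraries without the block, a setting added after seeing the data, gave 0 calls in each micelle comparison.

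With 1 smORF per overlap cluster the members' share of counts was 3.20% in undifferentiated, 2.46% in control, 2.35% in micelles without lipid and 2.68% in lipid micelle libraries, and single libraries ran from 2.49% to 2.70%, 1.77% to 2.0%, 1.74% to 1.78% and 2.02% to 2.10%. RPL31 IEC_05194 (-0.08) changed sign to 0.00626 with at least 10 counts in every library and ran from -0.234 to 0.133 with a library left out. RPL38 IEC_10403 (0.25) ran from -0.445 to 0.78, with the negative value without the first control library. Of the values of named smORFs under the alternatives, 533 kept side and sign, 28 lost the call, 12 gained it and 4 changed sign. The cause of these changes was not tested, except that stricter filters and 1 smORF per cluster test fewer smORFs. With 2 libraries a group, changes near 2-fold can be missed. In the simulated data 11 of 93 changes of 2-fold were called. Far fewer smORFs were changed there than were called here, and a 2-fold change lies at the fold threshold itself. This share therefore does not measure how many 2-fold changes were missed in the real comparison.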
